A study of Mus musculus with 28 samples.

Results

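MGP_BALBcJ_G0000003, MGP_BALBcJ_G0000010 and MGP_BALBcJ_G0000015 are 3 of the 40303 features counted in every library of sorted splenic B cells from female mice. They were chosen as the dominant features with the lowest ID numbers, that is, for the large share of library counts they take. That share is the value the choice rested on, so the levels below are a description. The sources used here pair none of the 40303 IDs with a gene name, so the 3 features are given by ID, without a name, position or sequence, and the identity of the sorted cells could not be checked against marker genes.

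The 28 libraries came from 3 sorted subsets. These were B cells with CD23 on their surface (CD23+), age-associated B cells with CD11c (ABC), and long-lived plasma cells (LLPC), sorted as B220- CD138+. The mice were either WT or carried an Xist deletion in B cells (Xist cKO), and the design asked how that deletion changes splenic B cell subsets in spontaneous lupus (SLE). All WT libraries had the label low dsDNA, and cKO libraries were labelled low dsDNA (healthy animals) or high dsDNA (animals with lupus pathology). The sources used here give neither the promoter that drove the deletion nor the age of the mice. CD23+ cells gave 6 WT, 3 cKO low and 3 cKO high libraries, ABC 4 WT and 3 cKO high, and LLPC 6 WT and 3 cKO high, so in ABC and LLPC genotype and disease state cannot be told apart.

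As background, CD23 is a low-affinity IgE receptor found on follicular B cells, which circulate at rest until they meet antigen. Age-associated B cells are antigen-experienced cells that accumulate with age and in autoimmune disease, and CD11c marks many of them. Plasma cells, marked by CD138, are terminally differentiated and spend a large part of their transcription and translation on secreted antibody, so a few transcripts usually take much of their RNA.

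Library totals ran from 2133489 to 23866710 counts. Replicate 6 of the CD23+ WT group stood apart, with 29517 features that had a count, where the other CD23+ libraries had 15402 to 18879. Replicate 3 of the ABC WT group had the highest share of G0000010 and G0000015, and the lowest of G0000003, among the 7 ABC libraries. The WT comparison of ABC with CD23+ cells is given with and without each of them, as are the ratios over G0000003 and the spread in the subset concerned. The 3 features are called by the last part of their IDs from here on.

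The word dominant held for all 3 features in plasma cells and for none of them in CD23+ cells. Averaged over the 28 libraries, G0000015 took 2.98% of counts, G0000010 2.47% and G0000003 1.40%, the second, the third and the fifth highest of all features. MGP_BALBcJ_G0007650, the feature with the highest mean share, took 11%. The LLPC libraries supplied 99.3% of the mean share of G0000003, 91.2% of that of G0000010 and 95% of that of G0000015. Just inside and outside the 10 highest mean shares stood MGP_BALBcJ_G0024435 at 0.415% and MGP_BALBcJ_G0028723 at 0.397%. Ranked within a library by counts, G0000003 was between place 3 and 7 in LLPC, between 186 and 1110 in ABC and between 4032 and 9383 in CD23+ cells. G0000010 held places 2 to 4 in LLPC, 3 to 24 in ABC and 11 to 17 in CD23+ cells. G0000015 held places 2 to 3, 5 to 31 and 22 to 43 in the same subsets. G0000010 and G0000015 were thus abundant in all 3 subsets, whereas G0000003 was abundant in plasma cells and scarce in CD23+ cells. Places rest on counts that are not divided by feature length, which is not known here.

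G0000003 spanned the widest range of levels. In CD23+ WT libraries its share ran from 0.000597% to 0.00203%, with a median of 0.00137% (n = 6). The cKO low libraries of CD23+ cells had 0.00478%, 0.00139% and 0.000557%, and the cKO high libraries had 0.00162%, 0.00120% and 0.00237%. In these 12 libraries the feature had 47 to 428 counts, so even the scarcest level was counted. For example, 88 counts in CD23+ WT replicate 1 gave a 95% Wilson interval of 0.000485% to 0.000736%, which covers counting error only. The ABC WT libraries had 0.0587%, 0.0399%, 0.0175% and 0.0428%, and the ABC cKO high libraries 0.0350%, 0.0247% and 0.0324%. All 7 ABC libraries lay above all 12 CD23+ libraries. In LLPC WT the share ran from 1.29% to 7.62%, with a median of 3.54% (n = 6), and the LLPC cKO high libraries had 7.37%, 3.63% and 3.73%. All 9 plasma cell libraries lay above every ABC library. The order of group means was LLPC cKO high (4.91% ± 2.13, SD, n = 3), LLPC WT (4.06% ± 2.81, n = 6), ABC WT (0.0397% ± 0.0170, n = 4), ABC cKO high (0.0307% ± 0.00536, n = 3), CD23+ cKO low (0.00224% ± 0.00224, n = 3), CD23+ cKO high (0.00173% ± 0.000590, n = 3) and CD23+ WT (0.00131% ± 0.000628, n = 6). Neighbours of the same subset overlapped, and neighbours of different subsets did not.

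**Figure D1:**
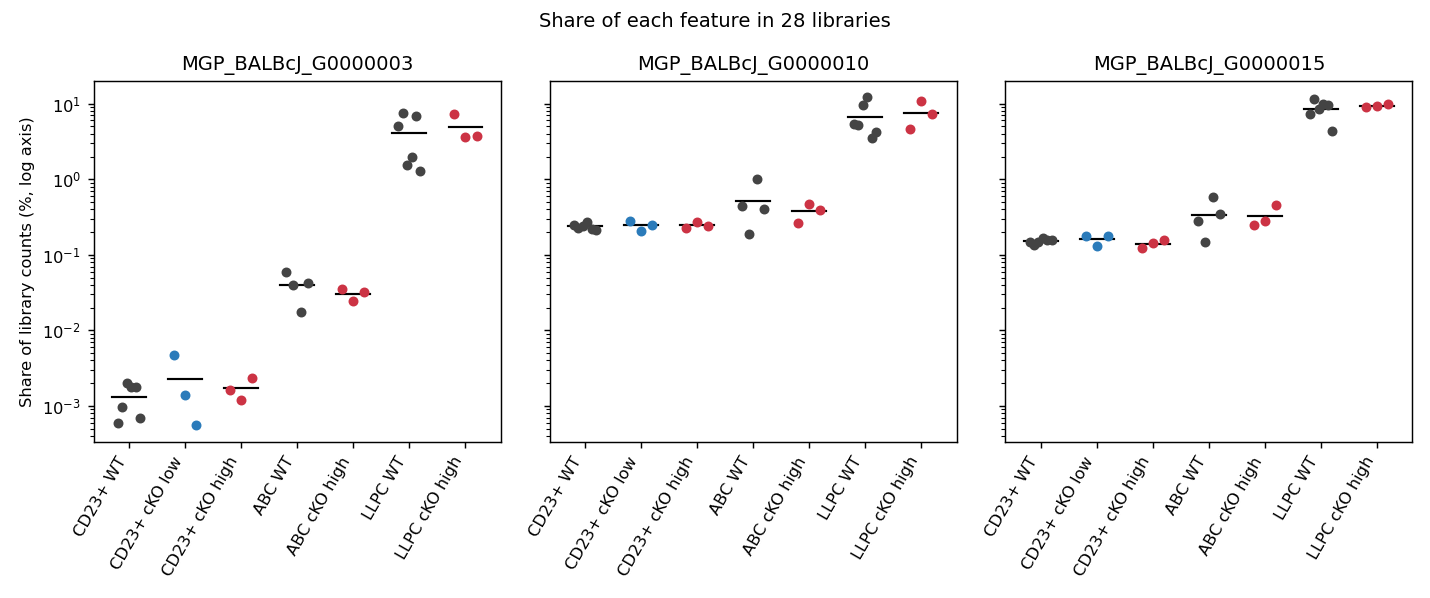
Share of library counts (%, log axis) of each of the 3 features in every library, by subset, genotype and dsDNA label. Points are libraries and bars are group means. G0000003 lies at or below 0.00478% in CD23+ cells and at or above 1.29% in plasma cells, while G0000010 and G0000015 stay between 0.124% and 1.02% in CD23+ cells and ABC and exceed 3.50% in plasma cells.

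G0000010 was the most abundant of the 3 features in all 12 CD23+ libraries and in 6 of 7 ABC libraries. In CD23+ WT cells its share ran from 0.215% to 0.274% with a median of 0.233% (n = 6). The cKO low libraries had 0.277%, 0.209% and 0.250%, and the cKO high libraries 0.227%, 0.269% and 0.241%. The 3 CD23+ groups thus lay within a narrow band. The ABC WT libraries had 0.438%, 0.191%, 1.02% and 0.407%, and the ABC cKO high libraries 0.264%, 0.471% and 0.393%. Replicate 2 of ABC WT and replicate 1 of ABC cKO high were no higher than the highest CD23+ library, so the ABC and CD23+ ranges overlapped. In LLPC WT the share ran from 3.50% to 12.1% with a median of 5.30% (n = 6), and LLPC cKO high libraries had 4.68%, 10.8% and 7.32%. All plasma cell libraries were above all others. By group mean the order was LLPC cKO high (7.59% ± 3.05), LLPC WT (6.70% ± 3.44), ABC WT (0.514% ± 0.354), ABC cKO high (0.376% ± 0.105), CD23+ cKO high (0.245% ± 0.0212), CD23+ cKO low (0.245% ± 0.0345) and CD23+ WT (0.237% ± 0.0224), each an SD with n as above. The only neighbours in that order without overlap were LLPC WT and ABC WT.

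G0000015 followed the same order of subsets and was the highest of the 3 features in 6 of the 9 plasma cell libraries, G0000010 being the highest in the other 3. Its share in CD23+ WT ran from 0.134% to 0.169% with a median of 0.153% (n = 6). The cKO low libraries had 0.178%, 0.131% and 0.175%, and the cKO high libraries 0.124%, 0.143% and 0.156%. These ranges overlapped throughout. In ABC WT the values were 0.284%, 0.150%, 0.575% and 0.345%, and in ABC cKO high they were 0.247%, 0.283% and 0.461%. Replicate 2 of ABC WT alone fell within the CD23+ range. In LLPC WT the share ran from 4.33% to 11.5% with a median of 8.96% (n = 6), and the LLPC cKO high libraries had 9.15%, 9.40% and 9.80%. The group means were 9.45% ± 0.328 in LLPC cKO high, 8.49% ± 2.47 in LLPC WT, 0.339% ± 0.177 in ABC WT, 0.330% ± 0.114 in ABC cKO high, 0.161% ± 0.0262 in CD23+ cKO low, 0.153% ± 0.0116 in CD23+ WT and 0.141% ± 0.0163 in CD23+ cKO high. Again the step from ABC to plasma cells was the only one between neighbouring groups without overlap, apart from that from ABC cKO high to CD23+ cKO low.

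Together the 3 features took 9.82% to 24.3% of an LLPC library, 0.381% to 1.61% of an ABC library and 0.341% to 0.460% of a CD23+ library. The LLPC mean was 19.2% ± 5.27 in WT (SD, n = 6) and 21.9% ± 1.61 in cKO high (n = 3). LLPC WT replicate 6 had the lowest sum, 9.82%, and the lowest share of G0000003 and G0000015 in its group. The make-up of the sum differed widely between plasma cell libraries. In LLPC WT replicate 4, G0000003 had 2.00% and G0000010 12.1%, whereas in LLPC WT replicate 5 G0000003 had 6.82% and G0000010 3.50%. The sum of these 2 features, 14.1% and 10.3% in those libraries, varied less relative to its mean than either of them. Over LLPC WT the SD was 27.5% of the mean for the sum of G0000003 and G0000010, against 69.4% for G0000003 and 51.4% for G0000010 (n = 6). A sum of unrelated parts can also have a lower relative SD than each part, so no relation between the 2 is read from this.

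**Figure D2:**
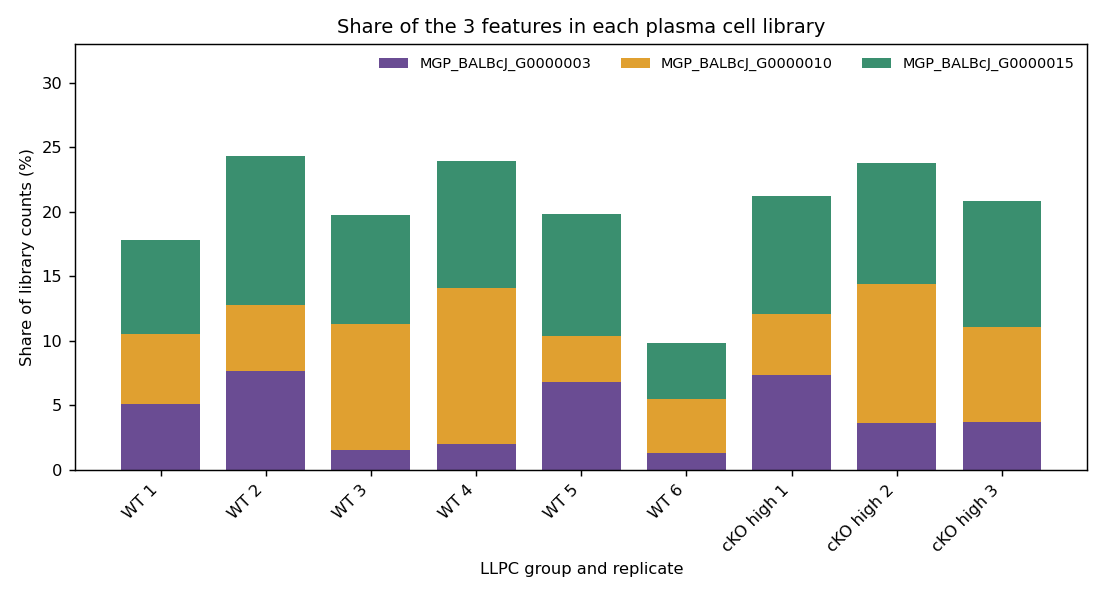
Share of library counts (%) taken by each of the 3 features, stacked, in the 6 WT and 3 cKO high plasma cell libraries. The stacks reach from 9.82% in WT replicate 6 to 24.3% in WT replicate 2, and the G0000003 part is small in WT replicates 3, 4 and 6.

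The difference between plasma cells and the other subsets is what made these features dominant, so it is given without a test. The mean share in LLPC WT was 3103 times that in CD23+ WT for G0000003, 28.2 times for G0000010 and 55.6 times for G0000015. Against ABC WT it was 102 times, 13.1 times and 25.1 times. The differences of LLPC WT over CD23+ WT were 4.06, 6.46 and 8.33 percentage points of all counts for G0000003, G0000010 and G0000015. Divided instead by the counts without the 10 features of highest mean share, which include the members themselves, the shares differed by 7.32, 11.7 and 15.1 points. The size of a share thus depends on what it is divided by. With TMM scaling, which takes most features as not differing between libraries, the log2 fold changes of LLPC over CD23+ in WT were 12.27 (SE 0.78), 5.49 (SE 0.48) and 6.48 (SE 0.43) in the same order of features. Those of LLPC over ABC were 7.37 (SE 0.78), 4.38 (SE 0.55) and 5.33 (SE 0.49). However, edgeR called 68.1% of all features in LLPC against CD23+ and 52.9% in LLPC against ABC. The TMM values thus rest on an assumption that these data do not bear out. As a fold, by either ratio of shares or TMM, the difference was largest for G0000003 and smallest for G0000010, whereas in percentage points of all counts it was smallest for G0000003 and largest for G0000015. With plain library totals in place of TMM the log2 fold changes of LLPC over CD23+ for G0000010 and G0000015 were 4.82 and 5.79. In sorted bulk cells, a higher share of cells that carry an RNA and more of that RNA per cell cannot be told apart.

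Animals were identified by the number that table names of different subsets have in common, which gave 12 animals, 7 of them with all 3 subsets. Within an animal, all 3 features were higher in LLPC than in CD23+ cells in 9 of 9 animals and higher in LLPC than in ABC in 7 of 7. The LLPC share was 756 to 8510 times the CD23+ share of the same animal for G0000003, 16 to 44.3 times for G0000010 and 27.1 to 85.6 times for G0000015. ABC exceeded CD23+ cells in 7 of 7 animals for G0000003, by 9.75 to 98.4 times, and in 7 of 7 for G0000015, by 1.12 to 3.41 times. G0000010 was higher in ABC in 6 of 7 animals, with ratios from 0.850 to 3.72. The exception was the animal of WT replicate 2.

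The WT comparison of ABC with CD23+ cells rests on libraries that contributed little to the choice of the features. G0000003 was 30.4 times as high in share in ABC WT as in CD23+ WT, and the groups did not overlap. Its log2 fold change was 4.90 (SE 0.60), with an adjusted p of 1.369e-05 in edgeR's quasi-likelihood test with Benjamini-Hochberg adjustment over 13503 features. Each ABC WT animal also gave a CD23+ WT library, a pairing that this fit and the exact tests below leave out. With the animal as a block, G0000003 gave 5.10 (edgeR adjusted p = 0.000158). G0000015 was 2.22 times as high in share, with a log2 fold change of 1.15 (SE 0.37, edgeR adjusted p = 0.0321). G0000010 was 2.16 times as high in share, with a log2 fold change of 1.12 (SE 0.44), and missed the threshold of 0.05 (edgeR adjusted p = 0.0781). Without ABC WT replicate 3 the ABC WT mean shares were 0.0471% ± 0.0102 for G0000003, 0.345% ± 0.135 for G0000010 and 0.260% ± 0.0996 for G0000015 (SD, n = 3), or 36.1, 1.46 and 1.70 times those in CD23+ WT. Without CD23+ WT replicate 6 the ratios were 27.7, 2.12 and 2.23. Thus 2 of the 3 features passed, in a comparison in which 23.4% of all features tested did. The call for G0000003 held in all 26 alternatives, with log2 fold changes of 4.67 to 5.14. That for G0000015 held in 15 of 26. It was lost with the animal as a block (edgeR adjusted p = 0.0549), without any 1 of the 6 CD23+ WT libraries (0.0502 to 0.0667, and 0.0505 without replicate 6, which stood apart) and without ABC WT replicate 4 (0.0705). Without ABC WT replicate 3 its log2 fold change was 0.75 (edgeR adjusted p = 0.190). For G0000010 the log2 fold change was 0.52 without ABC WT replicate 3, while without ABC WT replicate 2 it was 1.40 and passed the threshold (edgeR adjusted p = 0.0259), as it did without LLPC WT replicate 4 (0.0465) or 6 (0.0403), which share the fit. Exact two-sided permutation tests of the shares gave p = 0.00952 for G0000003, 0.0667 for G0000010 and 0.0381 for G0000015, and after adjustment over 18 such tests 0.171, 0.400 and 0.343. Groups of this size that do not overlap, as for G0000003, give no smaller p than 0.00952 in this test. Since that p alone adjusts to 0.171, nothing is read from the adjusted value of G0000003.

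Another feature that was high in plasma cells was set beside the ABC levels. MGP_BALBcJ_G0029684, singled out after its values were seen, is the only one of the other 7 most abundant features that was called higher in WT ABC than in WT CD23+ cells. Its share averaged 0.000759% ± 0.000452 in CD23+ WT (SD, n = 6), 0.0259% ± 0.0238 in ABC WT (n = 4) and 2.49% ± 0.860 in LLPC WT (n = 6). Its 4 ABC WT values were 0.0181%, 0.00264%, 0.0590% and 0.0239%, highest in replicate 3 and lowest in replicate 2, as for G0000010 and G0000015. G0000003 did not follow that order, being lowest in replicate 3. Expressed as a percent of the share in the same animal's LLPC library, the ABC share was 0.475% to 3.32% for G0000003 (median 0.870%, 7 animals) and 0.0689% to 2.30% for G0029684 (median 0.743%). It was 3.68% to 9.69% for G0000010 (median 5.63%) and 1.31% to 7.97% for G0000015 (median 3.88%). In CD23+ cells the corresponding medians were 0.0331% for G0000003, 0.0413% for G0029684, 4.33% for G0000010 and 1.60% for G0000015. The part of carried-over plasma cell RNA in the ABC and CD23+ levels was not tested.

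The ratio of 2 features within a library does not change with its total. G0000010 exceeded G0000003 by 119 to 420 times in CD23+ WT, with a mean log2 ratio of 7.66 (n = 6). In ABC WT it did so by 4.77 to 58.2 times, with a mean log2 ratio of 3.57 (n = 4), and in LLPC WT the ratio ran from 0.514 to 6.36, with a mean log2 ratio of 0.93 (n = 6). G0000003 was therefore the scarcer of this pair in every CD23+ and ABC library, but exceeded G0000010 in LLPC WT replicates 2 and 5 and in LLPC cKO high replicate 1. The mean log2 ratio of G0000015 over G0000003 was 7.03 in CD23+ WT, 3.06 in ABC WT and 1.35 in LLPC WT, and that of G0000015 over G0000010 was -0.63, -0.51 and 0.43. Between ABC WT and CD23+ WT, the log2 ratios over G0000003 differed by -4.09 (SE 0.85) for G0000010 and -3.97 (SE 0.76) for G0000015, without overlap. Without ABC WT replicate 3 the ABC WT ratios of G0000010 over G0000003 ran from 4.77 to 9.51 times (mean log2 ratio 2.80, n = 3), and these differences were -4.86 and -4.63. Without CD23+ WT replicate 6 the mean log2 ratios over G0000003 in CD23+ WT were 7.53 for G0000010 and 6.86 for G0000015 (n = 5). With all libraries, exact two-sided permutation tests gave p = 0.00952 for each of the 2 differences, or 0.0857 after adjustment over 18 tests. Groups without overlap give no smaller p here, so nothing is read from that adjusted value. The log2 ratio of G0000015 over G0000010 differed by 0.13 (SE 0.14, exact permutation p = 0.333, adjusted 0.804).

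**Figure D3:**
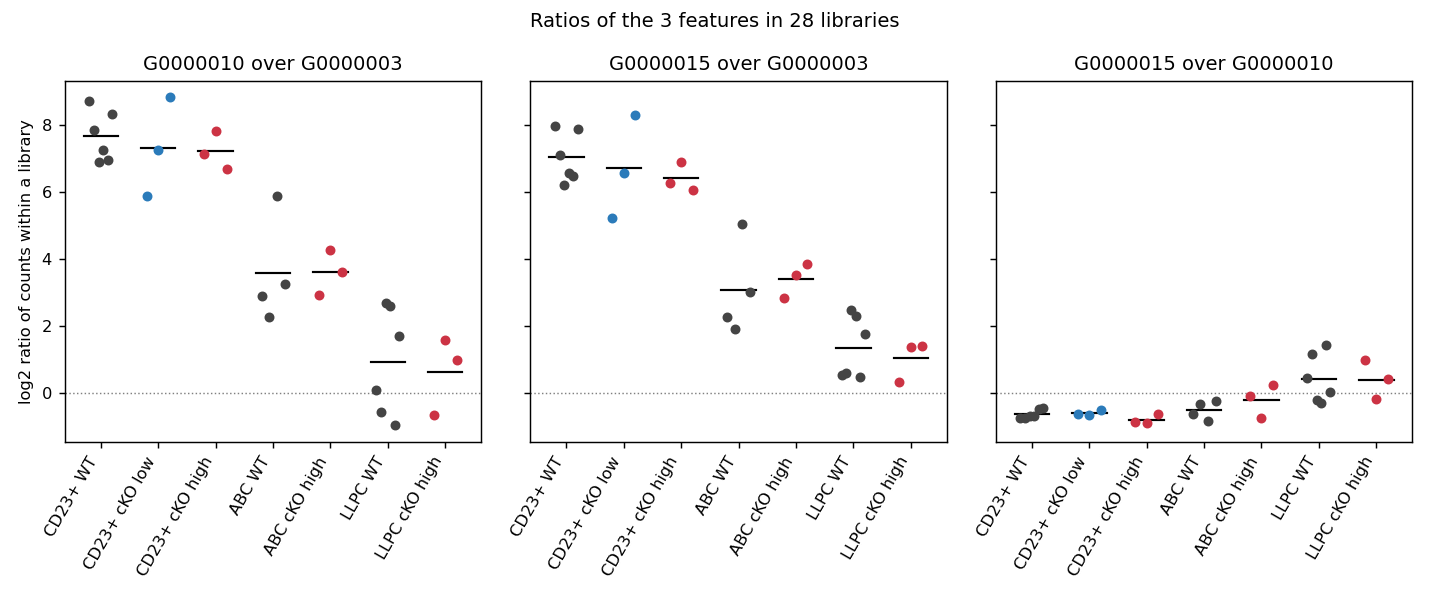
Log2 ratio of counts of each pair of the 3 features within a library, in 28 libraries. Points are libraries, bars are group means and the dotted line marks equal counts. The ratios over G0000003 are highest in CD23+ cells (WT means 7.66 and 7.03), lower in ABC (3.57 and 3.06) and lowest in plasma cells (0.93 and 1.35), while the ratio of G0000015 to G0000010 has WT means of -0.63, -0.51 and 0.43.

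Animals whose ABC had a high ratio of G0000010 to G0000003 also tended to have a high ratio in LLPC. Over the 7 animals with both subsets, 4 WT and 3 cKO high, Pearson's r of the log2 ratio was 0.86 (exact permutation p = 0.00556) and Spearman's rho was 0.79 (exact p = 0.0480). Without the 2 animals farthest from the median, r was 0.74. The 9 relations computed in this family were chosen after the values had been seen, and after Benjamini-Hochberg adjustment over them the exact p was 0.05 for r, which is not under the threshold, and 0.298 for rho. The log2 ratio of G0000015 to G0000003 gave r = 0.84 (exact p = 0.0167, adjusted 0.0750) and rho = 0.75 (exact p = 0.0663, adjusted 0.298), with r = 0.64 without the 2 farthest animals. For G0000015 to G0000010, r was 0.53 (exact p = 0.225, adjusted 0.552). The 6 relations that involve CD23+ cells had r from -0.50 to 0.34. The 4 WT and 3 cKO animals are each fewer than the 6 over which a correlation is given here, so no value within a group is given, and the carry-over of RNA between subsets of 1 animal was not tested.

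**Figure D4:**
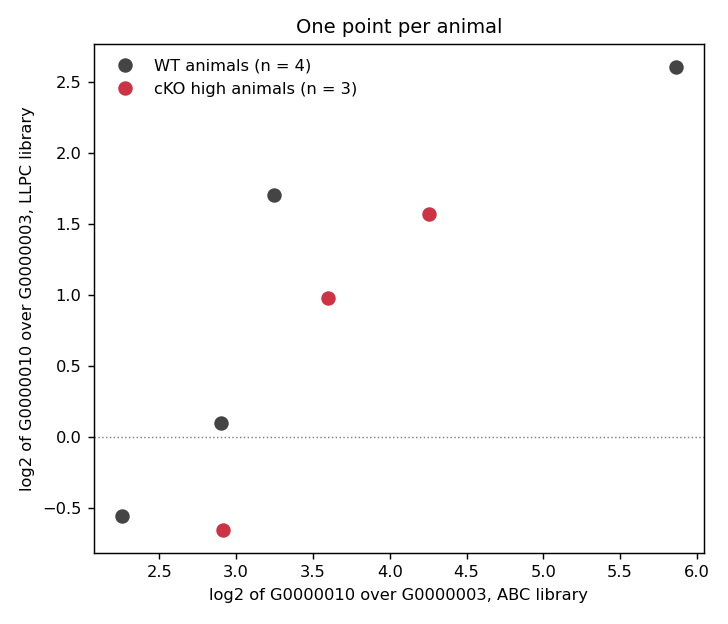
Log2 ratio of G0000010 to G0000003 in the ABC library (horizontal) and the LLPC library (vertical) of the same animal, 1 point per animal, coloured by genotype. Pearson's r over the 7 animals is 0.86, and the point farthest to the right is the animal of ABC WT replicate 3.

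Within a subset, no pair of members had a relation that passed the test, although G0000010 and G0000015 had a positive r in all 3 subsets. Over the 12 CD23+ libraries, log2 shares of G0000010 and G0000015 had r = 0.56 (permutation p = 0.0614, adjusted 0.196), which was 0.31 without the 2 farthest libraries. G0000003 had r = 0.30 with G0000010 (permutation p = 0.345, adjusted 0.443) and r = 0.15 with G0000015 (permutation p = 0.651, also after adjustment) there. Over the 9 LLPC libraries, log2 shares of G0000003 and G0000010 had r = -0.46 (exact permutation p = 0.208, adjusted 0.316), and r = -0.90 without the 2 libraries farthest from the median of G0000003. G0000003 and G0000015 had r = 0.59 (exact p = 0.0655, adjusted 0.196), which was 0.050 without the 2 farthest. Over the 7 ABC libraries, G0000010 and G0000015 had r = 0.87 (exact p = 0.0198, adjusted 0.179) and 0.32 without the 2 farthest, so that relation rests on those libraries. In LLPC the same pair had r = 0.32 (exact p = 0.462, adjusted 0.520). None of the 9 relations within subsets passed after adjustment, by r or by rho (lowest adjusted permutation p 0.179 and 0.514), which with 7 to 12 libraries does not show that the features vary independently.

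The spread among replicates also differed by subset. Around group means, the SD of log2 CPM (counts scaled to a common library total) was 0.15 for G0000010 and 0.16 for G0000015 in CD23+ cells, near the median of 0.14 over the 2166 features that averaged 100 CPM or more there (percentiles 60.9 and 68.0). G0000003, below 100 CPM in that subset, had an SD of 0.94. Without CD23+ WT replicate 6 the SDs were 0.96 for G0000003, 0.15 for G0000010 (percentile 64.2) and 0.17 for G0000015 (percentile 75.0). In ABC the SDs were 0.60 for G0000003, 0.81 for G0000010 and 0.69 for G0000015, at percentiles 99.2, 99.6 and 99.4 of 2152 features. Without ABC WT replicate 3 they were 0.28, 0.56 and 0.56, at percentiles 89.7, 99.2 and 99.2 of 2155 features. G0000010 and G0000015 were thus among the most variable of the abundant features in ABC with or without that library, and the place of G0000003 depended on it. In LLPC they were 1.01, 0.67 and 0.42, at percentiles 96.8, 90.5 and 66.6 of 1156 features, so that G0000015 was the steadiest of the 3.

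Comparisons of cKO with WT asked whether the deletion, with or without high dsDNA, goes along with another level of these features. None of the 3 was called in CD23+ cKO low against WT, where 0.0239% of all features were called. The log2 fold changes were 0.76 for G0000003 (SE 0.63), 0.060 for G0000010 (SE 0.12) and 0.095 for G0000015 (SE 0.12), each with an edgeR adjusted p of 0.997. Leaving out cKO low replicate 1, the library with the highest G0000003 share of the 12, turned the G0000003 value to -0.40 and the G0000010 value to -0.023. In CD23+ cKO high against WT, where 0.439% of features were called, they were 0.41 (SE 0.64), 0.069 (SE 0.12) and -0.093 (SE 0.12), with edgeR adjusted p of 0.856, 0.867 and 0.805. In CD23+ cKO high against cKO low, where 0% of features were called by edgeR (811 at an unadjusted p under 0.05, and 36 called by DESeq2 and 0 by limma), G0000003 gave -0.35 (SE 0.74), G0000010 0.0087 and G0000015 -0.19 (SE 0.13), with edgeR adjusted p of 0.918, 0.992 and 0.739. The SE was thus far smaller for G0000010 and G0000015 than for the scarce G0000003.

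In ABC cKO high against WT, where 1.13% of features were called, the log2 fold changes were -0.36 for G0000003 (SE 0.39), -0.46 for G0000010 (SE 0.61) and -0.046 for G0000015 (SE 0.51), with edgeR adjusted p of 0.809, 0.853 and 0.990. The direction of 2 of them depended on single libraries. G0000010 gave 0.13 without ABC WT replicate 3. G0000015 gave 0.35 without that library, 0.13 without ABC cKO high replicate 1 and 0.053 without ABC cKO high replicate 2, and 0.15 with the replicate number as a block. None of these was called. In LLPC cKO high against WT, where 0.00852% of features were called, the values were 0.41 (SE 0.71), 0.36 (SE 0.59) and 0.32 (SE 0.52), with edgeR adjusted p of 0.869, 0.861 and 0.861. The 2 groups compared overlapped for all 3 features in all 5 comparisons. The part of all features that overlapped was not counted, so nothing is read from that. The exact two-sided permutation tests of shares had adjusted p of at least 0.890 over these comparisons, and the 3 against 3 comparison cannot go below an exact p of 0.100. No unadjusted edgeR p of the 15 was under 0.05 and neither DESeq2 nor limma called a member. Over all features, an unadjusted edgeR p under 0.05 was found for 300 of 12542 in CD23+ cKO low against WT and 1370 in cKO high against WT. It was found for 811 in cKO high against cKO low, for 1494 of 12714 in ABC and for 540 of 11739 in LLPC. Most features thus had none, as the members did. These results do not show that the levels were equal, since the SE in LLPC was 0.52 to 0.71 on the log2 scale.

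**Figure D5:**
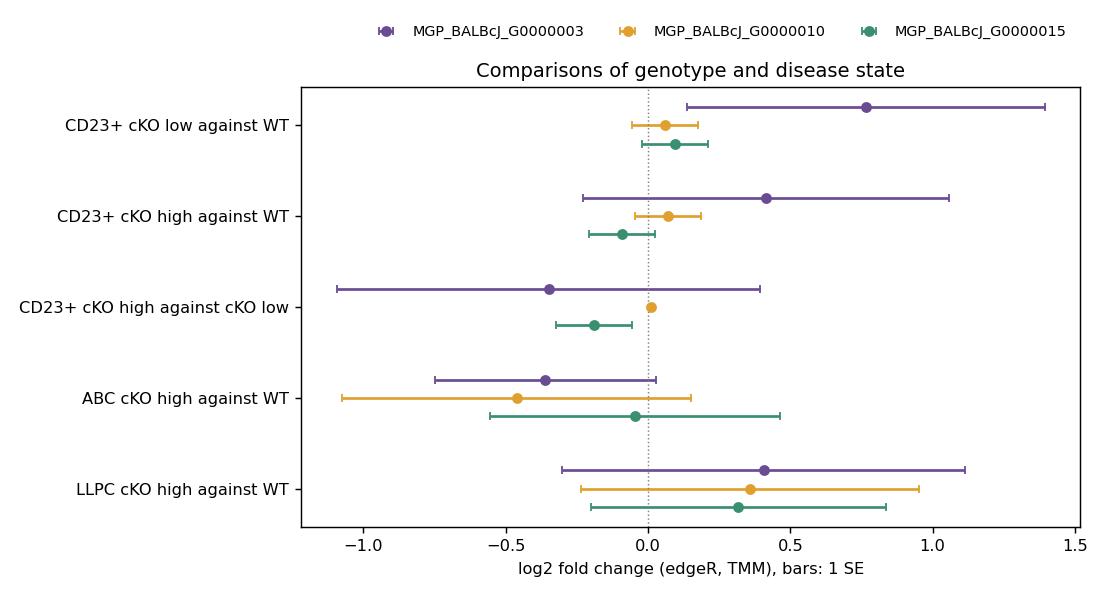
Log2 fold change (edgeR, TMM scaling) of each feature in the 5 comparisons of genotype and dsDNA label, with bars of 1 SE. No bar is drawn for G0000010 in CD23+ cKO high against cKO low, whose change is 0.0087. The bars of G0000010 and G0000015 are short in CD23+ cells (SE 0.12 against WT) and long in ABC and LLPC (SE 0.51 to 0.61).

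The effect of cKO high was also compared between subsets in a fit of all 28 libraries. No member was called, and the SE of up to 0.88 leaves wide room for a difference. This fit and its SEs leave out that libraries of different subsets came from the same animals. With the animal as a block no member was called either. ABC minus CD23+ gave -0.76 (SE 0.88), -0.52 (SE 0.61) and 0.060 (SE 0.51) on the log2 scale for G0000003, G0000010 and G0000015, with an edgeR adjusted p of 1.00 each, where 0% of features were called (703 at an unadjusted p under 0.05, and 21 called by DESeq2 and 20 by limma). LLPC minus CD23+ gave 8.39e-05, 0.28 (SE 0.59) and 0.41 (SE 0.49), with edgeR adjusted p of 1.00, 0.900 and 0.796, where 0.00708% of features were called. LLPC minus ABC gave 0.76 (SE 0.85), 0.80 (SE 0.61) and 0.35 (SE 0.51), with edgeR adjusted p of 0.766, 0.635 and 0.820, where 0.0354% of features were called.

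The 36 other features with an ID number of at most 40 were set beside the members, since the members were picked by low ID numbers. Of these, 7 had no count in any library and 21 could be tested in WT. In LLPC against CD23+ cells 19 were called higher and 1 lower by edgeR. The median log2 fold change of the 21 was 3.24, against -0.025 over all features. Of all 13503 features tested, 4526 were called higher and 4663 lower, together 68.1%. In LLPC against ABC the counts were also 19 and 1, with a median of 3.09 against -0.052. Of all features, 3286 were called higher and 3858 lower there, together 52.9%. A feature could pass the filter of this fit through its LLPC counts alone, so the numbers called in LLPC are a description. In ABC against CD23+ cells 7 of the 21 were called higher and 0 lower, with a median of 0.42 against -0.0019 over all features. Of all features, 1938 were called higher and 1227 lower, 23.4% in either direction. The most abundant of them, MGP_BALBcJ_G0000007 and MGP_BALBcJ_G0000006, averaged 4613 ± 6074 and 4681 ± 2364 CPM in LLPC WT (SD, n = 6), 147 ± 42.5 and 716 ± 605 CPM in ABC WT (n = 4), and 24.6 ± 14.2 and 16.7 ± 10.5 CPM in CD23+ WT (n = 6). Both were scarce in CD23+ cells like G0000003. They were picked by mean share over all libraries, which a high level in LLPC raises, so nothing is read from that likeness. G0000006 had a log2 fold change of 5.46 in ABC over CD23+ (SE 0.63, edgeR adjusted p = 7.425e-06), and G0000007 one of 2.57 (SE 0.70, edgeR adjusted p = 0.0128).

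The single feature that was lower in LLPC in both comparisons was MGP_BALBcJ_G0000009, named after its values were seen. It ran opposite to the 3 members, with 1914 ± 133 CPM in CD23+ WT (SD, n = 6), 572 ± 67.8 in ABC WT (n = 4) and 9.89 ± 18.7 in LLPC WT (n = 6). The LLPC values ran from 0.430 to 47.9 CPM with a median of 3.33, replicate 1 being the highest. Of the 36 features, 20 or 21 were tested in each cKO comparison, and it was also the only one called in any. It had 303.9 to 403.5 CPM in ABC cKO high against 474.8 to 618.9 CPM in ABC WT. The log2 fold change was -0.64 (SE 0.14, edgeR adjusted p = 0.0400), where 1.13% of all features were called. No alternative fit is given for this call. Of the other 7 most abundant features, 0 were called by edgeR in any of the 5 cKO comparisons, in which 0% to 1.13% of all features were called, so nothing is read from that count.

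Features whose levels varied most like each member were found among 1942 features that averaged 100 CPM or more. They were ranked by the lowest Pearson r of log2 CPM over the 3 subsets taken one at a time. Log2 CPM was first centred on the mean of each group, unlike the log2 shares related within subsets above. These correlations are a description, and features in a library share its depth and composition. For G0000003 they were MGP_BALBcJ_G0018055, with r of 0.70 over 12 CD23+, 0.86 over 7 ABC and 0.97 over 9 LLPC libraries, and MGP_BALBcJ_G0026408, with 0.66, 0.80 and 0.78. G0018055 had the opposite order of subsets, with 1065 ± 52.3 CPM in CD23+ WT, 753 ± 51.8 in ABC WT and 245 ± 106 in LLPC WT. For G0000010 they were MGP_BALBcJ_G0021911 (0.63, 0.96 and 0.85) and MGP_BALBcJ_G0000008 (0.50, 0.80 and 0.85), and for G0000015 MGP_BALBcJ_G0019560 (0.79, 0.99 and 0.93) and MGP_BALBcJ_G0024230 (0.79, 0.96 and 0.87). G0019560 averaged 121 ± 20.1 CPM in CD23+ WT, 189 ± 63.5 in ABC WT and 537 ± 127 in LLPC WT, and G0000008 averaged 37.9 ± 18.3, 498 ± 353 and 2255 ± 2477. Among the members themselves, G0000015 stood at place 35 for G0000010, whereas G0000010 stood at place 1820 and G0000015 at place 1495 for G0000003.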

How the data were processed

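RNA was measured in 28 libraries of FACS-sorted spleen cells, made with a Takara SMARTer-seq Pico V3 kit for low input, per the labels' protocols. The authors deposited raw counts, 1 table of whole numbers for each library, and the submitters' processing notes name FastQC, STAR 2.7.1a and featureCounts. Build, strand setting and the treatment of reads that map to several places were not stated in what was used here. For this reason reads of near-identical or overlapping features could have been split or dropped in ways that change these values.

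A share is a feature's counts over the library total. Groups come from the labels, which call the libraries biological replicates. Replicate pairs differed by more than sampling noise (chi-square per degree of freedom 3.73 to 205.5). Fold changes came from edgeR 4.0.16 in R 4.3.3 (filterByExpr, TMM, robust quasi-likelihood test, two-sided), fitted on all features, within a subset, over WT libraries, or over all 28 for differences of effect. An SE is the log2 fold change over the root of the F value, and is left out where the change is near 0. A feature was called at an adjusted p under 0.05. Log2 CPM values had a prior count of 2 added. The fits within a subset and over WT libraries were also run on simulated counts, with the same dispersion for all features and no animal effect. That run covers neither the uneven spread of these data nor the differences of effect. Relations over 12 libraries used 100000 permutations and smaller ones all orders.

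The members, lists and tests were chosen with earlier results of these data known. Tests of the members in LLPC against the other subsets had been planned and were dropped once the LLPC libraries were seen to make up at least 91.2% of each mean share, which leaves 18 share and 18 ratio tests. Besides the members, features named are the 2 most like each member, the most abundant feature, the 2 most abundant with an ID number of at most 40, those around the tenth highest mean share, and those said to be chosen after their values were seen.

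The alternatives tried were other scalings and share denominators, DESeq2 1.42.0, voom in limma 3.58.1, no filter, a stricter filter of 1 CPM, 1 fit of all libraries, replicate and animal blocks, and each library left out in turn. Leaving out both animals of a higher number series was added after the data had been seen, as were the relations between features and the means, ratios and spread without ABC WT replicate 3 or CD23+ WT replicate 6. Libraries of 1 animal, as read from the table names, deviated together across subsets, with median correlations of 0.19, 0.12 and 0.097 across features (lowest 0.034) against -0.013, 0.00046 and -0.024 for different animals.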

Additional observations from a re-analysis of the deposited data

How the results depend on the processing

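No member was called in any of the 5 cKO comparisons or the 3 differences of effect, under any alternative run. Of 726 alternative values of the 9 comparisons with a test, 674 kept the direction and the side of the threshold, and of 156 of the 2 comparisons without one, 153 moved by less than the spread between replicates and 3 by more, with the same direction. In WT ABC against CD23+, G0000010 gave 1.11 with DESeq2 and 1.18 with limma, both called, and G0000015 gave 1.14 with no filter, not called. With plain totals, LLPC over CD23+ was 4.82 for G0000010 and 5.79 for G0000015, and LLPC over ABC was 4.65 for G0000015. Values near 0 changed sign in G0000010 for cKO high against low (-0.0037 with TMM without the 10 most abundant features, and a share difference of -0.000436 points without the 10 leading features), in G0000015 for ABC minus CD23+ (-0.061 with limma), and in G0000003 for LLPC minus CD23+ (-0.13 with plain totals, -0.29 with limma, and -0.070 without both animals of the higher number series). The cause was not tested.

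With the replicate block, G0000015 gave 0.95 in WT ABC against CD23+, or 1.11 with the animal as the block, neither called, and 0.15 in ABC cKO high against WT, a reversed direction. The block of replicate number or animal changed no other call of a member. Replicate number is not a pairing. ABC WT replicate 3, for example, came from the animal of CD23+ WT replicate 4 and LLPC WT replicate 4. Within a subset, WT and cKO libraries of the same number came from different animals.

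Leaving out each library in turn gave these ranges of log2 fold changes where a direction or call changed. In CD23+ cKO low against WT they were -0.40 to 1.23 for G0000003 and -0.023 to 0.18 for G0000010. In CD23+ cKO high against WT they were -0.0032 to 0.13 for G0000010 and -0.16 to 0.0019 for G0000015. In CD23+ cKO high against low they were -0.80 to 0.82 for G0000003 and -0.10 to 0.10 for G0000010. In ABC cKO high against WT they were -0.74 to 0.13 for G0000010 and -0.37 to 0.35 for G0000015. In WT ABC against CD23+ they were 0.52 to 1.40 for G0000010 and 0.75 to 1.40 for G0000015. ABC minus CD23+ gave -0.80 to 0.072 for G0000010 and -0.27 to 0.46 for G0000015. LLPC minus CD23+ gave -0.35 to 0.32 for G0000003 and -0.027 to 0.61 for G0000010, and LLPC minus ABC -0.052 to 0.68 for G0000015.

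The share differences, in percentage points, ranged in CD23+ cKO low against WT from -0.000335 to 0.00178 for G0000003 and from -0.00822 to 0.0261 for G0000010, and in cKO high against WT from -0.0035 to 0.0172 for G0000010. In cKO high against low they ranged from -0.00136 to 0.000756 for G0000003 and from -0.018 to 0.0163 for G0000010. In ABC cKO high against WT they ranged from -0.245 to 0.0306 for G0000010 and from -0.0733 to 0.0706 for G0000015. In LLPC cKO high against WT they ranged from -0.38 to 1.56 for G0000003 and from -0.70 to 2.34 for G0000010.

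The log2 ratios over G0000003 differed by -1.11 to 0.36 (G0000010) and -1.13 to 0.41 (G0000015) in CD23+ cKO low against WT, and by -0.82 to 0.66 and -1.03 to 0.51 in cKO high against low. They differed by -0.41 to 0.79 and -0.050 to 0.99 in ABC, and by -0.77 to 0.35 and -0.51 to 0.034 in LLPC. That of G0000015 over G0000010 differed by -0.019 to 0.068 in CD23+ cKO low and by -0.31 to 0.27 in LLPC cKO high.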
